A study of Mus musculus with 10 samples.

Results

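The SLC25 genes encode the mitochondrial carrier family, and 44 of the 15075 genes measured in interscapular brown adipose tissue (iBAT) have a symbol that starts with Slc25a. Ucp1, Ucp2 and Ucp3 belong to the same protein superfamily but carry another symbol and were not included. RNA was compared between 5 Control mice, labelled wild-type, and 5 AdCKO mice, labelled as a knockout of CRLS1, all C57BL/6, 20 weeks old and housed at room temperature, with 1 library per mouse. AdCKO mice carry Crls1 alleles with a floxed exon 4 and Cre recombinase driven by the adiponectin promoter, which is active in adipocytes and not in the other cells of the depot. The authors describe the controls of this cross as also homozygous for the floxed allele, but lacking Cre. Crls1 encodes cardiolipin synthase, which makes the signature phospholipid of the mitochondrial inner membrane.

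Each carrier of this family is a small membrane protein, in most cases of the inner mitochondrial membrane, that exchanges or moves particular solutes between the cytosol and the matrix. The ADP/ATP carriers bind cardiolipin tightly, and newly made carriers reach the inner membrane through the TIM22 import route. Brown adipocytes burn fatty acids to produce heat and also make new fatty acids, and the carriers of acylcarnitine and of citrate link their mitochondria with both.

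Crls1 transcript fell from 1060.2 ± 191 normalized reads per kb of exon in Control to 217 ± 26.4 in AdCKO (SD, n = 5 and 5), with no overlap between the groups. The libraries summed to 7615400 to 8171140 normalized reads in Control and 5419800 to 5843020 in AdCKO. All 8 brown adipocyte markers were detected in both groups. The macrophage markers (9 of 9 tested higher, summed level 441 to 1220 in Control and 6375 to 9163 normalized reads per kb in AdCKO) and the fibroblast markers (5 of 5 higher, 799 to 1112 and 2971 to 4272) moved with the genotype, while 4 of 8 brown adipocyte markers fell and 1 rose. In bulk tissue, fewer cells of a type and less RNA per cell cannot be told apart, and the part of these cells in the results below was not tested. Skeletal muscle markers stood apart in AdCKO replicates 1, 2 and 4, with summed levels of 6904, 26737 and 10322 against 294 and 303 in AdCKO replicates 3 and 5 and 471 to 508 in Control. Most of the Control sum was a single marker, Myl1, at 330 to 397 in Control and 138 and 159 in AdCKO replicates 3 and 5.

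Carrier transcripts were less abundant in AdCKO as a family. Summed over the 44 members, they came to 29006, 35248, 31573, 32586 and 33435 normalized reads per kb in Control replicates 1 to 5 and to 18589, 20218, 19046, 19027 and 20103 in AdCKO replicates 1 to 5. The groups did not overlap, with AdCKO at 59.9% of Control on average (log2 difference -0.74, exact two-sided permutation p = 0.0079, the smallest that 5 against 5 libraries allow). As a share of all normalized reads, which does not depend on the scaling of the libraries, the family took 0.813% ± 0.035 in Control and 0.684% ± 0.022 in AdCKO (exact permutation p = 0.0079). Most of the difference in this share lay with 1 gene. Without Slc25a1, the citrate carrier, the share was 0.639% ± 0.026 in Control and 0.608% ± 0.043 in AdCKO, and the groups overlapped (exact permutation p = 0.214). The remaining members summed to 69.5% of their Control level, beside 71.6% for the total of all normalized reads.

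The makeup of the family also shifted. Slc25a1 held 25% ± 2.7 of the summed carrier level in Control and 13.1% ± 4.5 in AdCKO, and the acylcarnitine carrier Slc25a20 went from 12.1% ± 1.4 to 8.07% ± 1.8. As shares of a smaller sum in AdCKO, the glutathione carrier Slc25a39 went from 6.29% ± 0.47 to 12% ± 1.0, the ADP/ATP carrier Slc25a5 from 8.14% ± 0.41 to 10.9% ± 1.1 and the phosphate carrier Slc25a3 from 5.04% ± 0.23 to 8.04% ± 0.91. With the deposited scaling, the level of Slc25a5 fell and those of Slc25a39 and Slc25a3 did not pass the test described below. These shares were computed after the levels had been seen and carry no test.

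**Figure D1:**
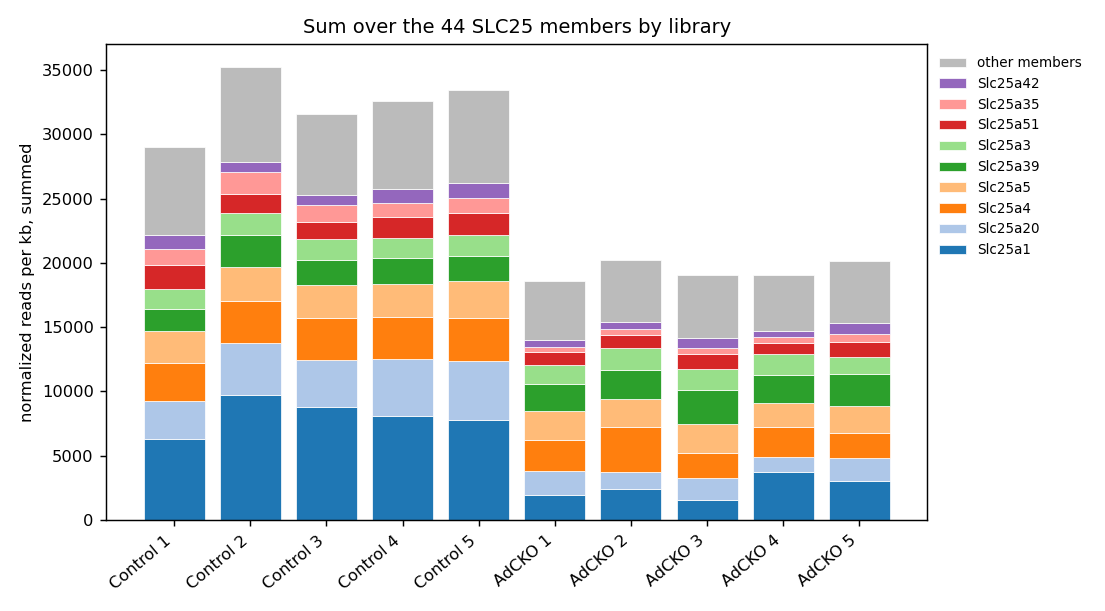
Summed level of the 44 SLC25 members in each library, in normalized reads per kb, with 9 of the more abundant members as coloured segments and the other 35 in grey. The Control bars reach 29006 to 35248 and the AdCKO bars 18589 to 20218, and the lowest segment, Slc25a1, shrinks most.

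Of the 44 members, 35 averaged 10 or more normalized reads per kb in a group and were tested with all other such genes (limma on log2(value + 1), two-sided, adjusted p under 0.01 over 11244 genes). All 35 had a mean above 10 in both groups. In AdCKO, 6 members rose (17.1%, against 25.6% of all genes tested) and 16 fell (45.7%, against 28% of all genes), and 13 did not pass. The median difference over the 35 was -0.31 on the log2 scale, beside -0.01 over all genes. Every AdCKO library was above every Control library in the 6 members that rose and in no other of the 35 (17.1%, against 24.5% of all genes tested). Likewise every AdCKO library was below every Control library in the 16 that fell and in no other (45.7%, against 26.4% of all genes tested).

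How the libraries are scaled bears on these counts. When every library was set to the same total, the median of all genes moved up by 0.47 on the log2 scale, 60.6% of all genes were called higher and 9.77% lower, and 14 members were called higher and 10 lower. Quantile normalization gave 8 members higher and 15 lower (22% and 31.2% of all genes). Later counts under either of these scalings are to be read beside these shares of all genes. Slc25a24, Slc25a12, Slc25a10, Slc25a25, Slc25a45 and Slc25a37 were called higher, and Slc25a48, Slc25a1, Slc25a23, Slc25a35, Slc25a20, Slc25a44, Slc25a32, Slc25a16 and Slc25a11 were called lower, under all 3 scalings. Slc25a5, Slc25a26 and Slc25a36 turned from lower to a difference above 0 with equal totals, and Slc25a5 also did under quantile normalization.

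**Figure D2:**
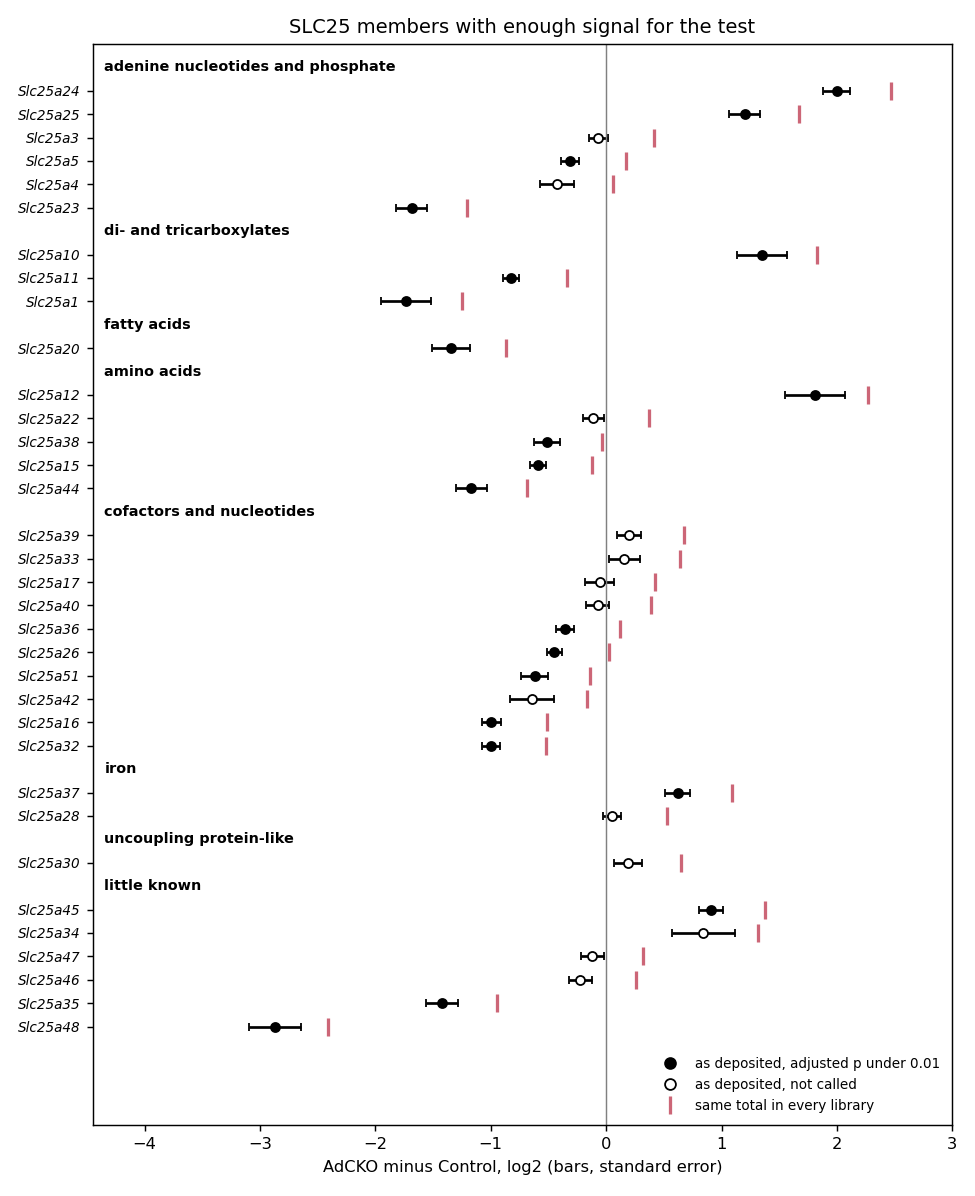
Difference between AdCKO and Control for 34 of the 35 tested members, on the log2(value + 1) scale, grouped by what the carriers transport; points and bars give the difference and its standard error, filled points passed the test, and red ticks give the difference with equal library totals. The range runs from -2.87 for Slc25a48 to 2.00 for Slc25a24, and the red ticks lie to the right of the points.

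Among the carriers of adenine nucleotides and phosphate, 2 of 6 tested members rose, 2 fell and 2 did not pass (25.6% of all genes rose and 28% fell). Slc25a4 (ANT1) and Slc25a5 (ANT2) encode the ADP/ATP carriers, which export ATP in exchange for ADP, and they were among the 4 most abundant carriers, while Slc25a31 (ANT4) was near the bottom of the range at 1.76 and 1.43 normalized reads per kb. The coding sequences of Slc25a4 and Slc25a5 are 77.5% identical over 897 bases, with a longest shared run of 20 bases (the read length is not given in the sources used here). To show how close they are, the 90 coding bases in which they are most alike are given here from the GENCODE annotation of mm9, with the 14 positions that differ in capitals, from exon 2 of Slc25a4, chr8:47294665-47294754 on the minus strand, and exon 2 of Slc25a5, chrX:34336946-34337035 on the plus strand.
Slc25a4: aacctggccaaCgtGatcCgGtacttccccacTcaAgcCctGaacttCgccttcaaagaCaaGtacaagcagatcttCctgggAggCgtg
Slc25a5: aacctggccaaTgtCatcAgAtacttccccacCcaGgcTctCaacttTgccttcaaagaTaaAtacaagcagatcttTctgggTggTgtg

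Slc25a5 measured 2481, 2652, 2567, 2618 and 2834 normalized reads per kb in Control replicates 1 to 5 and 2226, 2133, 2319, 1869 and 2055 in AdCKO replicates 1 to 5. All AdCKO libraries were below all Control libraries, with a difference of -0.31 ± 0.08 (SE, adjusted p = 0.00345), but its sign depended on the scaling (0.17 with equal totals and 0.20 under quantile normalization, neither called), and without Control replicate 5 the adjusted p was 0.0118. Slc25a4 measured 2927, 3249.9, 3209.8, 3240.4 and 3401 in Control and 2439, 3549, 1955, 2321 and 1958 in AdCKO, in the same order. The AdCKO library with the most muscle signal, replicate 2, was above every Control library and the other 4 were below all of them. The difference was -0.43 ± 0.14 (SE, adjusted p = 0.0208), which did not pass. It was -0.57 without AdCKO replicate 2 (adjusted p = 0.000327), -0.71 with AdCKO replicates 3 and 5 alone (adjusted p = 0.000292), 0.06 with equal totals and 0.19 under quantile normalization.

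The ANT1 share of the 3 ADP/ATP carrier transcripts was 54.1% to 55.5% in the Control libraries and 52.3%, 62.4%, 45.7%, 55.4% and 48.8% in AdCKO replicates 1 to 5. The AdCKO libraries spread on both sides of the narrow Control range, and the means of 54.9% ± 0.58 and 52.9% ± 6.4 were not told apart (exact permutation p = 0.476). Without AdCKO replicate 2 the difference was -4.37 percentage points (exact permutation p = 0.0397), without AdCKO replicate 3 it was -0.19 (exact permutation p = 0.944), without AdCKO replicate 5 it was -0.95 (exact permutation p = 0.651), and the 2 AdCKO libraries with low muscle markers differed from Control by -7.66 percentage points (exact permutation p = 0.048, the smallest that 5 against 2 allow). The phosphate carrier Slc25a3, which brings in the phosphate for ATP synthesis, measured 1628 ± 57.8 and 1558 ± 166 with a difference of -0.07 ± 0.08 (SE, adjusted p = 0.474), and was called higher with equal totals (0.41) and under quantile normalization (0.38).

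The calcium-regulated ATP-Mg/phosphate carriers, which set the size of the matrix adenine nucleotide pool, moved in opposite directions. Slc25a23 (chr17:57183134-57199286 on the minus strand, mm9), the main form in Control, measured 869.9, 866, 738, 708 and 724 normalized reads per kb in Control and 214, 216, 200.2, 258 and 339 in AdCKO. The highest AdCKO library stayed well under the lowest Control library, with a difference of -1.69 ± 0.13 (SE, adjusted p = 4.47e-07). Slc25a24 (chr3:108926067-108971327 on the plus strand) measured 15.96, 16.7, 20.7, 16.8 and 18.9 in Control and 74.0, 77.6, 80.3, 86.4 and 55.5 in AdCKO. It had the smallest p of the family, every AdCKO library was above every Control library, and the difference was 2.00 ± 0.12 (SE, adjusted p = 5.26e-08). Slc25a25 (chr2:32270007-32306990 on the minus strand) measured 20.3, 30.8, 25.5, 26.4 and 28.4 in Control and 73.8, 63.8, 61.5, 44.7 and 65.9 in AdCKO, again without overlap, with a difference of 1.20 ± 0.14 (SE, adjusted p = 9.23e-06).

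As levels per kb, the 3 genes summed to 825 ± 78.2 in Control and 382 ± 46.9 in AdCKO. Slc25a23 made up 94.6% ± 0.85 of that sum in Control and 63.6% ± 6.4 in AdCKO, Slc25a24 went from 2.18% ± 0.38 to 20.0% ± 4.6, and Slc25a25 from 3.21% ± 0.57 to 16.4% ± 3.5. These shares, too, were computed after the levels had been seen and carry no test. Exons of Slc25a25 share 379 bases with Naif1 on the annotation, and Naif1 fell by 0.47 on the log2 scale.

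The printed stretches show how far these paralogs differ where they are most alike. The coding sequences of Slc25a23 and Slc25a24 are 64.9% identical with a longest shared run of 14 bases, those of Slc25a23 and Slc25a25 70.4% with 23 bases, and those of Slc25a24 and Slc25a25 67.4% with 17 bases. Their most similar stretch of 90 coding bases is shown, with capitals at the 25 positions that are not identical in all 3, from exon 9 of Slc25a23, chr17:57186610-57186699 on the minus strand, exon 9 of Slc25a24, chr3:108966397-108966486 on the plus strand, and exon 10 of Slc25a25, chr2:32271930-32272019 on the minus strand (mm9).
Slc25a23: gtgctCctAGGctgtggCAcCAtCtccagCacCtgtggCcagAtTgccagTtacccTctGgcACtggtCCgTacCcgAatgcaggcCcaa
Slc25a24: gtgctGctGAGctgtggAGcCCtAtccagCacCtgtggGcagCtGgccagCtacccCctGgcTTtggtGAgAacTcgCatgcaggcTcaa
Slc25a25: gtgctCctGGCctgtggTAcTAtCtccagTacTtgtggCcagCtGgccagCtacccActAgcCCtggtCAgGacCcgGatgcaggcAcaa

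**Figure D3:**
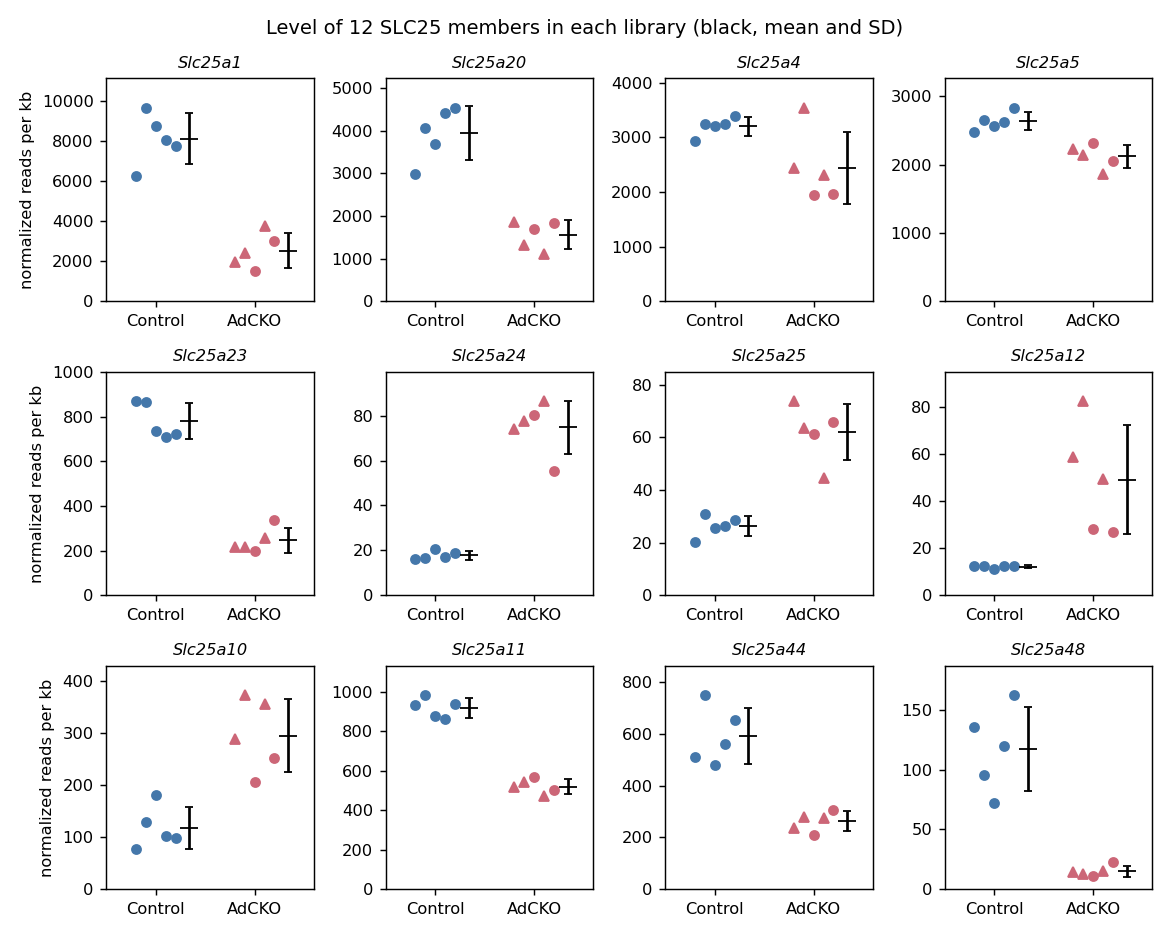
Level of 12 members in each library in normalized reads per kb, on axes that start at 0, with Control in blue, AdCKO in red, triangles for the 3 AdCKO libraries with high skeletal muscle markers, and black marks for the mean and SD. The groups are apart in 11 panels, and in Slc25a4 1 AdCKO library lies above the Control range.

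Of the carriers of di- and tricarboxylates, 2 fell and 1 rose of 3 tested (28% and 25.6% of all genes). Slc25a1 (chr16:17925304-17928312 on the minus strand), which exports citrate as the carbon source for cytosolic fatty acid synthesis, was the most abundant carrier by mean in both groups. In AdCKO replicates 1, 2 and 3, however, Slc25a4 was above it. Slc25a1 measured 6276, 9695, 8791, 8093 and 7792 normalized reads per kb in Control and 1958, 2418, 1538, 3775 and 3011 in AdCKO. The AdCKO libraries lay far below the Control libraries, with a mean at 31.3% of Control and a difference of -1.73 ± 0.21 (SE, adjusted p = 1.76e-05). The oxoglutarate/malate carrier Slc25a11, an arm of the malate-aspartate shuttle, measured 936, 985, 877, 862 and 938 in Control and 517, 543, 568, 470.3 and 503 in AdCKO. These values were tight within each group and did not overlap, with a difference of -0.82 ± 0.07 (SE, adjusted p = 7.59e-07).

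The dicarboxylate carrier Slc25a10, which exchanges malate or succinate for phosphate, went the other way. It measured 76.8, 129, 180.1, 102 and 98.1 in Control and 289, 373, 206, 355 and 251 in AdCKO. The highest Control library, replicate 3, came close to the lowest AdCKO library, also replicate 3, and the difference was 1.35 ± 0.22 (SE, adjusted p = 0.000153). Within AdCKO its level was higher in the 3 libraries with high muscle markers, and with the muscle marker score in the fit the difference was 1.01 (adjusted p = 0.0028). Slc25a10 was also highest where the summed macrophage markers were highest, in Control replicate 3 (1220) and AdCKO replicate 2 (9163). The lowest libraries did not match in either group, and the part of macrophages was not tested. The mean ratio of Slc25a10 to Slc25a11 was 0.128 in Control and 0.573 in AdCKO.

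Of 10 tested genes that make or use the carried citrate and pyruvate, 7 fell and 1 rose, with a median of -0.71 (28% and 25.6% of all genes, median -0.01). With equal totals 4 were called lower and 2 higher, and under quantile normalization 3 and 1. ATP citrate lyase Acly, which cleaves the exported citrate to acetyl-CoA, went from 11976 to 2962 normalized reads per kb (log2 difference -2.06) and cytosolic aconitase Aco1 from 581 to 274 (-1.07). The mitochondrial phosphoenolpyruvate carboxykinase Pck2 went against them, from 30.0 to 89.4 (1.55). In the malate-aspartate and glycerol phosphate shuttles, 4 of 6 fell and 2 rose, beside 28% and 25.6% of all genes. The lower calls were 3 with equal totals and 2 under quantile normalization. Those that fell included glycerol-3-phosphate dehydrogenases Gpd1 (-2.04) and Gpd2 (-1.87) and mitochondrial malate dehydrogenase Mdh2 (-0.85). The aspartate aminotransferases Got1 (2.45) and Got2 (1.02) rose.

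Slc25a20, the carnitine/acylcarnitine carrier that takes long-chain fatty acids into the matrix for oxidation, was by mean the second most abundant carrier in Control and the fifth in AdCKO. It measured 2984, 4067, 3678, 4418 and 4539.7 normalized reads per kb in Control and 1859, 1309, 1697, 1108 and 1840.3 in AdCKO. No AdCKO library came near the Control range, and the difference was -1.35 ± 0.16 (SE, adjusted p = 1.39e-05). Of the other genes of the carnitine shuttle, 5 of 6 fell and 1 rose, with a median of -1.04 (28% and 25.6% of all genes, median -0.01). Carnitine palmitoyltransferase 2 (Cpt2), which acts right after the carrier, fell from 3824 to 1491 normalized reads per kb (-1.37), carnitine acetyltransferase Crat from 2878 to 1403 (-1.04) and the cell surface carnitine transporter Slc22a5 from 219.7 to 107 (-1.04). Cpt1a, the form of the entry enzyme that is minor in brown fat, rose from 50.8 to 154 (1.59).

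Among the amino acid carriers, 1 of 5 tested members rose and 3 fell (25.6% and 28% of all genes). Slc25a12 (aralar; chr2:71112352-71205611 on the minus strand), the aspartate/glutamate carrier of the malate-aspartate shuttle, measured 12.4, 12.2, 11.1, 12.4 and 12.3 normalized reads per kb in Control and 58.8, 82.3, 27.9, 49.5 and 27.0 in AdCKO. Each AdCKO library exceeded all Control libraries, and the difference was 1.81 ± 0.26 (SE, adjusted p = 5.70e-05). The 3 AdCKO libraries with high muscle markers were the 3 highest, and the 2 without them still stood at more than the highest Control value. With the muscle marker score in the fit the difference was 1.14 ± 0.12 (adjusted p = 1.11e-05), and with AdCKO replicates 3 and 5 alone it was 1.12 ± 0.11 (adjusted p = 2.37e-05). Slc25a13 (citrin), its paralog, was under the minimum for the test, at 2.01 to 2.22 in Control and 3.53 to 4.83 in AdCKO.

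**Figure D4:**
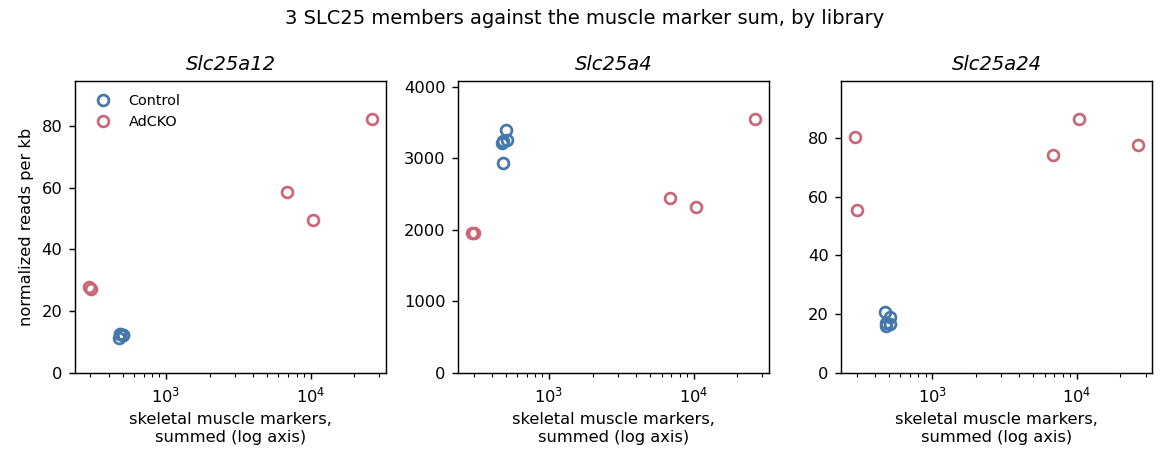
Level of Slc25a12, Slc25a4 and Slc25a24 in normalized reads per kb against the summed level of 10 skeletal muscle markers (log axis), 1 circle per library. Slc25a12 is highest in the AdCKO library with a marker sum of 26737 and stays above Control at sums of 294 and 303, while Slc25a24 shows no such order.

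Slc25a44, which brings branched-chain amino acids into the mitochondria of brown fat, went from 592 ± 110.2 to 262 ± 38.0 normalized reads per kb (SD). The groups did not overlap and the difference was -1.17 ± 0.13 (SE, adjusted p = 9.06e-06). Of the 4 branched-chain enzymes tested, the dehydrogenase subunit Bckdha fell (-1.69) and the other 3 did not pass, where 28% of all genes fell. With equal totals 1 of the 4 was called higher, as was 1 under quantile normalization. The ornithine carrier Slc25a15 fell by 0.59 and the glycine carrier Slc25a38, which supplies heme synthesis, by 0.51 on the log2 scale, and with equal totals these differences were -0.12 and -0.04, neither called.

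Of the enzymes around ornithine, glutamate, glycine and proline, 4 of 7 tested rose and 2 fell, beside 25.6% and 28% of all genes. These counts were 5 and 1 with equal totals, and 4 and 2 under quantile normalization. The enzyme of proline and ornithine synthesis Aldh18a1 went from 7.69 to 49.7 normalized reads per kb (2.55). Glutamate dehydrogenase Glud1 fell (-0.44), as did proline dehydrogenase Prodh (-1.12). The glutamate carrier Slc25a22 did not pass (-0.11 ± 0.09 (SE, adjusted p = 0.314)), and was called higher with equal totals (0.37).

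None of the 11 carriers of cofactors and nucleotides was called higher, and 6 fell, beside 25.6% and 28% of all genes. Slc25a32, which brings folate and flavin into mitochondria, measured 101, 111, 99.8, 88.5 and 111 in Control and 49.4, 50.6, 53.1, 47.0 and 53.5 in AdCKO. The AdCKO libraries were within 7 normalized reads per kb of each other and their mean was 49.5% of Control (-0.996 ± 0.08 (SE, adjusted p = 3.65e-07)).

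Slc25a16, a carrier tied to coenzyme A, measured 267, 237, 240.4, 210.2 and 244 in Control and 109, 121, 126, 132 and 110.1 in AdCKO. Its AdCKO mean was 50% of Control, without overlap (-0.99 ± 0.08 (SE, adjusted p = 4.93e-07)). The coenzyme A carrier Slc25a42 went from 980.4 ± 189 to 637 ± 175 normalized reads per kb (SD), but its libraries overlapped and its adjusted p of 0.01004 lay just outside the threshold. Slc25a42 passed with a pseudocount of 0.1 and without Control replicate 3, AdCKO replicate 3 or AdCKO replicate 5. Over the settings other than leaving out a library, its difference ranged from -0.65 to -0.16. The NAD+ carrier Slc25a51, the S-adenosylmethionine carrier Slc25a26 and the pyrimidine nucleotide carrier Slc25a36 fell by 0.62, 0.45 and 0.36, and with equal totals these differences were -0.14, 0.03 and 0.12, none of them called.

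The glutathione carrier Slc25a39 did not pass at 1725 to 2496 in Control and 2103 to 2582 in AdCKO (0.20 ± 0.10 (SE, adjusted p = 0.106)). With equal totals and under quantile normalization its differences were 0.68 and 0.72, both called higher. By mean it rose from the fifth to the third most abundant carrier. Slc25a40, its low paralog, Slc25a33 and the peroxisomal cofactor carrier Slc25a17 did not pass either (-0.07, 0.16 and -0.06). With equal totals Slc25a40 and Slc25a33 were called higher (0.39 and 0.64), and under quantile normalization Slc25a40 stood at -0.34, not called.

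In one-carbon, S-adenosylmethionine and thiamine metabolism, 2 of 6 tested genes rose and 3 fell, beside 25.6% and 28% of all genes. None was called lower with equal totals, 4 were under quantile normalization, and 1 was with a replicate block, while 2 were called higher in each of these settings. The mitochondrial folate enzyme Mthfd2, which uses the folate that Slc25a32 delivers, went from 16.7 to 191 normalized reads per kb (3.43), and S-adenosylmethionine synthetase Mat2a from 532 to 862 (0.69). The flavin adenine dinucleotide synthase Flad1 fell (-0.57).

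Of the iron carriers, mitoferrin 1 (Slc25a37) went from 43.0 to 62.9 in Control to 64.3 to 86.5 in AdCKO, without overlap. The difference was 0.62 ± 0.11 (SE, adjusted p = 0.000337), and with AdCKO replicates 3 and 5 alone it was 0.58 (adjusted p = 0.0126). Mitoferrin 2 (Slc25a28), the more abundant form in this tissue, was at 208 ± 21.9 and 215 ± 9.73 and did not pass, but was called higher with equal totals (0.53). Mitoferrin 1 is strongly used in red cell precursors. Of 5 erythroid markers listed, 2 were matched: Alas2 measured 31.8 to 70.5 in Control and 23.5 to 33.8 in AdCKO and did not pass, and Slc4a1 was under the minimum. The part of such cells in the Slc25a37 values was not tested. Among 11 genes of iron, heme and glutathione handling, 5 fell and 2 rose, with a median of -0.09 (28% and 25.6% of all genes, median -0.01). With equal totals 2 were called lower and 6 higher. The mitochondrial exporter Abcb10, which stabilizes mitoferrin 1, fell (-1.11), as did ferrochelatase Fech (-0.83) and the iron-sulfur scaffold Iscu (-0.77), while the rate-limiting heme enzyme Alas1 (0.42) and glutathione synthetase Gss (0.40) rose. Both of these higher calls were lost without Control replicate 1 or 4 or AdCKO replicate 2, 3, 4 or 5 in turn, and in both settings that handle muscle signal.

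The strongest fall of the family was in Slc25a48 (chr13:56539716-56573724 on the plus strand), among its less studied members. It measured 136, 95.7, 72.0, 120.1 and 163 normalized reads per kb in Control and 14.4, 12.2, 11.1, 14.7 and 22.9 in AdCKO. The lowest Control library was more than 3 times the highest AdCKO library, the AdCKO mean was 12.8% of Control, and the difference was -2.87 ± 0.22 (SE, adjusted p = 3.99e-07). In the order of levels it went from place 20 to place 34. Slc25a35 also fell, by -1.42 ± 0.14 (SE, adjusted p = 2.31e-06). Its exons share 545 bases with Rangrf, which fell by 0.49, those of Slc25a26 share 120 with Lrig1, and Slc25a10, Slc25a23, Slc25a33 and Slc25a46 share 168 to 471 bases with predicted or little-known genes. Whether the counting used strand is not given in the sources used here, so reads in these stretches are of uncertain origin.

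Slc25a45 measured 29.8, 23.7, 31.2, 30.1 and 25.8 in Control and 59.8, 52.6, 47.4, 61.1 and 47.9 in AdCKO. It rose without overlap, by 0.91 ± 0.10 (SE, adjusted p = 8.42e-06). Slc25a34 went from a median of 42.1 to 96.2, but Control replicate 4, at 101, lay within the AdCKO range, and the difference of 0.84 ± 0.27 (SE, adjusted p = 0.0158) did not pass. It passed without Control replicate 4, without AdCKO replicate 4 and with equal totals (1.32). Slc25a46 and Slc25a47 did not pass, nor did Slc25a30, the only tested member of the uncoupling protein-like group (-0.22, -0.12 and 0.19). Slc25a47 was called lower under quantile normalization (-0.58) and stood at 0.32 with equal totals, and Slc25a30 was called higher with equal totals (0.65).

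The 9 members under the minimum were Slc25a13, Slc25a14, Slc25a18, Slc25a21, Slc25a27, Slc25a29, Slc25a31, Slc25a43 and Slc25a53. Mean levels of these 9 spanned 0.546 to 9.11 (Control) and 0.617 to 9.03 (AdCKO) normalized reads per kb. The deposited values are never 0 and vary little at the low end (Slc25a21 0.538 to 0.572 in Control), and no comparison was read from them alone.

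The balance within pairs of carriers of the same or a similar substrate was taken as a log2 ratio of value + 1 within each library, in which the scaling of the library cancels except for the 1 added to low values, and 11 pairs were compared. The log2 ratio differed between the groups in 7 of them (exact two-sided permutation test, Benjamini-Hochberg p under 0.05 over the 11 pairs). In 5 of these, no AdCKO library overlapped the Control range, each at an adjusted permutation p of 0.0175. They were Slc25a10 over Slc25a11 (AdCKO minus Control 2.17), Slc25a23 over Slc25a25 (-2.89), Slc25a12 over Slc25a13 (1.10), Slc25a24 over Slc25a25 (0.80) and Slc25a33 over Slc25a36 (0.51), the last a pair of pyrimidine nucleotide carriers. In the pairs Slc25a10 and Slc25a11, and Slc25a23 and Slc25a25, the members were called in opposite directions, so these ratios add no separate support. No share over other pairs of genes was taken, and 25.6% of all single genes rose and 28% fell. The pairs were chosen with earlier results of these data known. Slc25a13, Slc25a18 and Slc25a29, each the lower member of a pair, were under the minimum of 10, so the ratios that include them rest on low values. With AdCKO replicates 3 and 5 alone, those with low muscle markers, Slc25a12 over Slc25a13 differed by 0.42 in place of 1.10. None of the 11 pairs passed there (adjusted permutation p 0.0748 to 0.238). The smallest exact permutation p of 5 against 2 libraries is 0.048, so a pair could pass after adjustment only if all 11 reached it. The lack of a pass therefore says little about the pairs.

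For Slc25a28 over Slc25a37 (-0.57, adjusted permutation p = 0.0291) and Slc25a15 over Slc25a29 (-0.54, adjusted permutation p = 0.0374) the libraries overlapped. Both lost the call without AdCKO replicates 1, 2 or 4 in turn (adjusted permutation p 0.0546 to 0.0624), and the second also without AdCKO replicate 5 (0.0624). The ratios of Slc25a4 to Slc25a5 (-0.11), Slc25a22 to Slc25a18 (-0.16), Slc25a39 to Slc25a40 (0.27) and Slc25a16 to Slc25a42 (-0.35) were not told apart between the groups (adjusted permutation p 0.131 to 0.5). Slc25a39 over Slc25a40 passed without Control replicate 2 (0.38, adjusted permutation p = 0.0327).

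**Figure D5:**
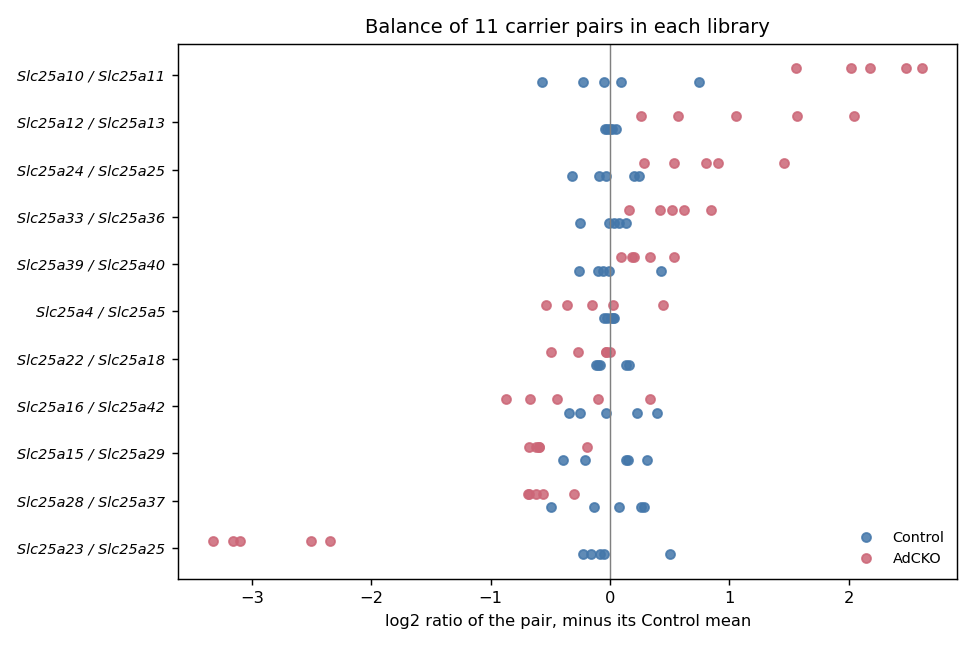
Log2 ratio of 11 carrier pairs in each library minus the Control mean of the pair, with Control in blue and AdCKO in red. The groups are fully apart in 5 pairs, with Slc25a23 over Slc25a25 shifted by -2.89 and Slc25a10 over Slc25a11 by 2.17, and Slc25a4 over Slc25a5 spreads widely in AdCKO.

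Of 15 tested other transporters of the mitochondrial membranes, 9 fell and 2 rose, with a median of -0.55 (7 and 4 with equal totals, 8 and 3 under quantile normalization). Of all genes, 28% fell and 25.6% rose, with a median of -0.01 (9.77% and 60.6% with equal totals, 31.2% and 22% under quantile normalization). Both subunits of the mitochondrial pyruvate carrier fell, Mpc1 from 10799 to 3774 normalized reads per kb (-1.52) and Mpc2 from 5235 to 2157 (-1.28), as did sideroflexin 5 (-1.98 for Sfxn5) and the transporter Abcb8 (-1.47). Sideroflexin 3 (Sfxn3, 1.33) and the outer membrane channel Vdac3 (0.31) rose. In the TIM22 route that inserts the carriers, 4 of 9 tested genes fell and none rose, beside 28% and 25.6% of all genes. Those that fell were the channel subunit Timm22 (-0.73), Timm13 (-0.71), Timm8b (-0.52) and the lipid kinase Agk (-0.45). With equal totals 1 of the 9 was called lower and 4 higher, and under quantile normalization 3 and 1. In the list of nucleotide and phosphate energy transfer, 2 of 5 tested genes fell, among them adenylate kinase Ak3 (-0.64), and none rose (28% and 25.6% of all genes). None was called lower under either other scaling, and 1 was called higher with equal totals. Over all 79 tested partner genes, 42 fell and 14 rose (53.2% and 17.7%, beside 28% and 25.6% of all genes). With equal totals 24 of the 79 were called lower and 28 higher, a setting in which 9.77% of all genes were called lower and 60.6% higher.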

How the data were processed

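PolyA RNA from iBAT of 10 mice was sequenced (Illumina HiSeq). The authors aligned reads to mm9 (STAR), counted those in exons (iRNA-seq) and scaled the libraries with DESeq2. What the authors deposited is a signal: scaled reads per kb of counted exon for 1 RefSeq transcript per gene, not counts. Values did not fall on whole-read steps (22.4% to 23.6% within 0.1 of a step, 20% by chance), so no count test was run. The authors' own fold changes, p-values and group means (4 columns) were not used.

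Genes that averaged 10 or more in Control or AdCKO (11244) were compared as log2(value + 1), pseudocount 1, by limma 3.58.1 (R 4.3.3; lmFit, then eBayes with a trend, two-sided), with Benjamini-Hochberg adjustment and a threshold of 0.01. Differences on this scale understate the change of low genes. The limma step was tested on simulated data. Sums, shares and pair ratios were compared by exact two-sided permutation tests at a threshold of 0.05. Sequences came from GENCODE vM1 on mm9. Python 3.11.15 with matplotlib 3.10.9 drew the figures.

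The members, lists and pairs were chosen with earlier results of these data known. Full values are given for the 6 called members with the smallest p in each direction, the 4 most abundant, and pairs whose members were called in opposite directions, and, of each partner list, for at most 4 genes with the smallest p and the called genes that go against its majority. A few genes that the rule names are not reported here, and counts include them. Members outside this rule are given with fewer values. Alternatives were a pseudocount of 0.1 or 10, other filters, 2 other scalings, limma without or with a robust trend, a replicate block, each library left out and a threshold of 0.05. The 2 settings that handle muscle signal were chosen after seeing the data.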

Additional observations from a re-analysis of the deposited data

Results flagged for a closer look

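In 96 groups of 5 values examined (34 tested members, sums and pair ratios in each genotype), 6 had a library set apart from the other 4 by more than 0.71 of the group's range, where chance gives about 1 in 20. Slc25a12 was low in Control replicate 3 (11.1 normalized reads per kb, the others 12.2 to 12.4). Slc25a15 was high in AdCKO replicate 2 (43.7, the others 37.5 to 38.5). Slc25a36 was high in AdCKO replicate 5 (83.3 against 72.0 to 74.7), still below all Control libraries. Slc25a28 was low in AdCKO replicate 4 (198 against 217 to 223). The log2 ratio of Slc25a15 to Slc25a29 was high in AdCKO replicate 3 (2.45 against 1.96 to 2.04), and that of Slc25a23 to Slc25a25 was high in Control replicate 1 (5.35 against 4.62 to 4.802), farther from AdCKO than the others.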

How the results depend on the processing

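With equal library totals, 14 members were called higher and 10 lower (6 and 16 with the deposited scaling) and 28 and 24 partner genes (14 and 42). Of all genes, 60.6% were called higher and 9.77% lower with equal totals (25.6% and 28% with the deposited scaling). Slc25a4 and Slc25a5 turned to 0.056 and 0.17 with equal totals, and under quantile normalization to 0.19 and 0.20. The lower share of the family in the library shrank to -0.031 percentage points without Slc25a1. The other planned settings kept both counts of members within 1.5 times. The summed level kept its direction and call, at -0.26 with equal totals, -0.27 under quantile normalization and between -0.78 and -0.71 with a library left out. Leaving out a library gave 6 to 7 members higher and 15 to 17 lower, ANT1 share differences of -4.37 to -0.19 percentage points, and ratios of 0.20 to 0.38 for Slc25a39 over Slc25a40, -0.63 to -0.46 for Slc25a15 over Slc25a29 and -0.69 to -0.50 for Slc25a28 over Slc25a37. AdCKO replicates 3 and 5 alone gave 5 members higher and 13 lower and an ANT1 share difference of -7.66. The share of all genes called with these fewer libraries is not given here, so the change in the counts cannot be assigned to the carriers. Beside -0.30 in the main fit, the members' median minus that of all genes was -0.23 with AdCKO replicates 3 and 5 alone. No pair passed there (adjusted permutation p 0.0748 to 0.238), where a pass was possible only if all 11 pairs reached the smallest p. The differences were 0.42 (Slc25a12 over Slc25a13), -0.39 (Slc25a15 over Slc25a29), 0.60 (Slc25a24 over Slc25a25), -2.83 (Slc25a23 over Slc25a25), -0.49 (Slc25a28 over Slc25a37), 0.73 (Slc25a33 over Slc25a36) and 1.79 (Slc25a10 over Slc25a11).

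A replicate block gave 6 members higher and 15 lower, losing Slc25a5 (-0.31, adjusted p = 0.0145). Same-numbered libraries had correlations of -0.27 to 0.10 and did not each match their own number best, so the numbers were not taken to pair the mice.

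Depth is known only as normalized reads, which gives no counting error for single genes, and members under 10 normalized reads per kb were not tested.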

Other observations

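Promoters of 35 members (45 promoters of 300 bases, from RefSeq on GRCm38.p6) were searched on both strands for 3 motifs. The C/EBP-ATF element TTGCATCA was in 0 of 45 (0.895% of all 32851 promoters), the estrogen-related receptor element TNAAGGTCA in 0 of 45 (1.28%) and the NRF1 element GCGCATGC in 1 of 45, that of Slc25a31 (2.71%). With motifs this rare in all promoters, 45 promoters cannot show a lack of them, and only exact matches to these letters were counted. The median number of CG pairs was 15 in member promoters and 7 in all promoters. The other 9 members had no match in the table.

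The lymphocyte markers were high in AdCKO replicate 1 (summed level 143, against 23.3 to 36.9 in the other 4 and 25.2 to 34.2 in Control). The endothelial markers overlapped between the groups (2 of 5 higher, 1181 to 1579 and 1295 to 1846), and of the Schwann and neural markers 2 rose and 1 fell.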
